A study of Mus musculus with 42 samples.

Results

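The 51 genes described here encode the machinery of DNA replication. They were listed by the complex in which their products work and not by a measured value, though with earlier results of these data known. Of the 51, 50 were measured by array probe sets carrying a single gene symbol, out of 18194 genes measured in all, and Chaf1a was not analyzed. They were followed in 42 single retinal progenitor cells (RPCs), the dividing cells of the developing retina, each profiled on its own Affymetrix mouse array. The cells came from embryos and newborns of the CD1 strain, which the labels name for most cells and the methods for all, and the labels give no treatment and no altered gene for any group. Embryonic day 12.5 (E12.5) gave 11 cells, E13.5 gave 4, E14.5 gave 2, E15.5 gave 1, E16.5 gave 11, and the day of birth (P0) gave 13. Retinas had been dissociated with papain and cells picked without regard to shape, and a cell entered the series only after its own profile had been scored as that of an RPC, from genes found together with cyclin D1, Fgf15, Sfrp2 and mu-crystallin. A share of cells below is therefore a share of cells already called RPCs by expression, and whether replication genes weighed in that score was not tested. A few of the cells, E16.5 F1 and E14.5 B1 among them, also scored for a neuronal type and were called transitional in the study, while the labels name all cells retinal progenitors and all were kept here.

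DNA replication begins in G1, when the origin recognition complex, with Cdc6 and Cdt1, loads the Mcm2 to Mcm7 ring onto origins, a step called licensing. In S phase, Cdc45 and the GINS complex bind the ring and make it an active helicase, DNA polymerase alpha with its primase lays down primers, and polymerases delta and epsilon extend them while held to DNA by the sliding clamp Pcna, which replication factor C loads. Many of these genes are transcribed together at the G1 to S transition under E2F transcription factors, and they mark proliferating cells in the retina as elsewhere.

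The value of a gene in a cell was the highest signal of its probe sets, computed by the authors with MAS5 on a linear scale with every array scaled to the same mean. A gene was called present at a signal of 1000 or more, the level under which the methods treat a signal as background. A signal below 1000 does not show that a transcript was missing from the cell, since a few copies can be lost in reverse transcription and 35 cycles of PCR. No animal or litter is named for any cell, so a stage counted as 1 sample and stages were compared without a test. The intervals given (95%, exact for shares and Newcombe for differences) cover counting error over cells or values only, and values of 1 cell share its array. Intervals over several genes count each value as separate, so they understate the spread between cells.

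The profiles held 1386 to 5253 genes at 1000 or more per cell (median 3034). On 5 E16.5 arrays (cells J1, J2, J4, E8 and F1) the 18 hybridization control probe sets departed from their usual pattern by more than 0.5 (SD, log2), and the overall shares, the E16.5 minus E12.5 differences and the correlations within E16.5 are given with and without them. Signals of single genes at E16.5 are over all 11 arrays. Of 9 progenitor markers measured, a cell held 2 to 9 (median 7.5), and Ccnd1 and Pax6 were each present in 41 cells. Of 11 markers of postmitotic neurons, 0 to 10 were present per cell (median 2), with Tubb3 in 23 cells and Stmn2 in 19. Of the values of 4 amacrine markers 11.3% reached 1000, of 4 photoreceptor markers 8.33% (Crx in 7 cells, Rcvrn in none), of 2 lens crystallins 5.95%, and the blood gene Hba-a1 was present in 1 cell.

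Replication genes were common in these cells but far from uniform. Over all 50 genes and 42 cells, 49.5% of the values reached 1000 (interval 47.4% to 51.7%), against 17.0% of the values of all genes, and without the 5 E16.5 arrays the share was 48.2%. Every one of the 50 genes was present in at least 4 cells, as were 8388 of the 18194 genes measured. Of all genes, 72.6% were present in at least 1 of the 42 cells. Of the 50 genes, 27 were found in 21 or more cells, while 10.8% of all genes were found that widely. No replication gene was present in all 42 cells, where only 57 of the 18194 genes measured were, and the widest, Pcna, reached 37. In all, 9 genes were found in 32 cells or more (Pcna, Mcm7, Mcm2, Slbp, Gmnn, Rrm2, Mcm5, Mcm6 and Rrm1), 18 in 21 to 31, 16 in 10 to 20 and 7 in 4 to 9 (Orc1, Orc5, Pole2, Gins3, Tyms, Cdc6 and Rpa3).

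**Figure D1:**
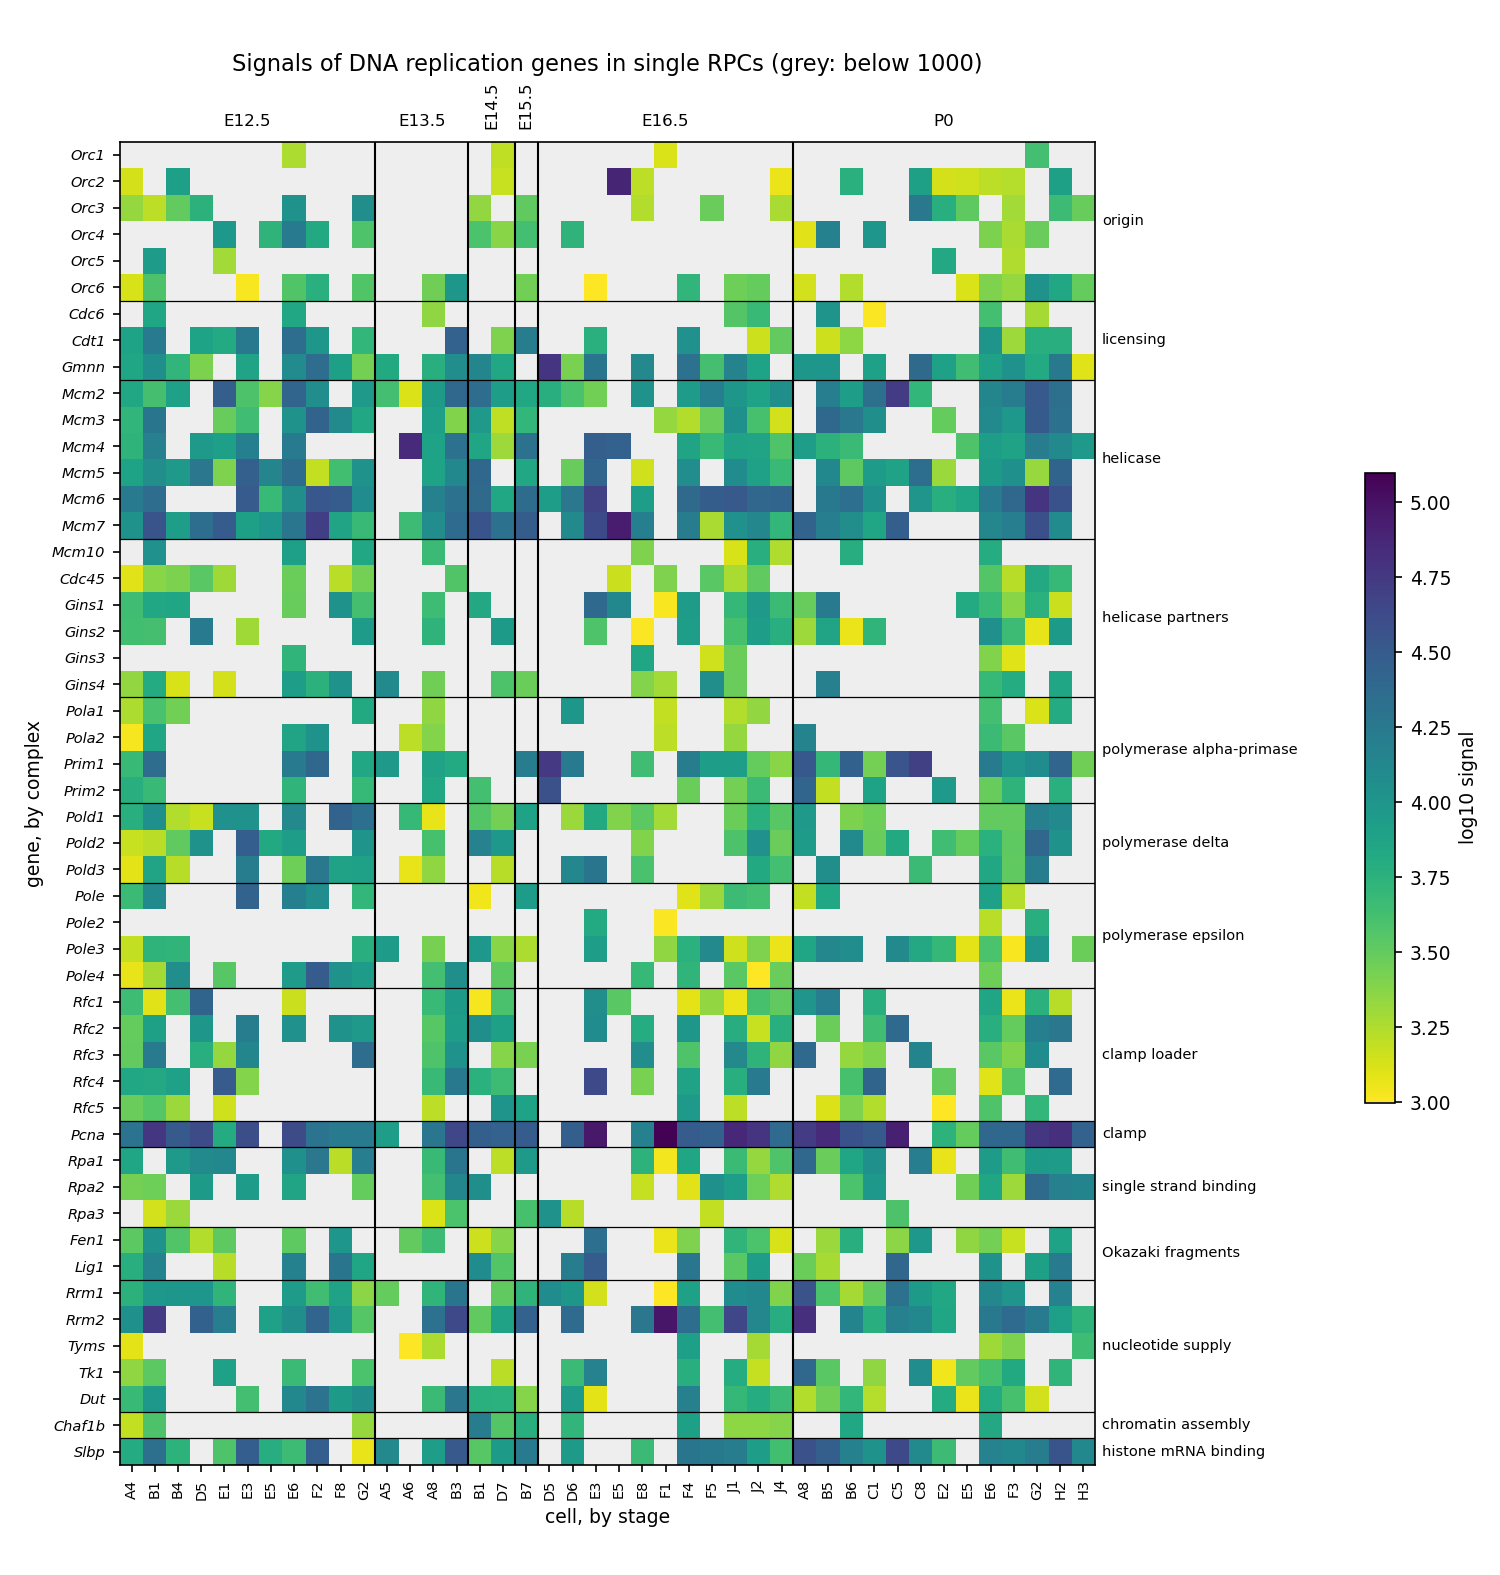
Signals of the 50 replication genes (rows, grouped by complex) in the 42 cells (columns, grouped by stage), on a log10 color scale that starts at 1000, with values below 1000 in grey. The Mcm2 to Mcm7, Pcna, Rrm2 and Slbp rows are filled in most cells, and the Orc1, Orc5, Pole2 and Gins3 rows in 4 to 6 cells.

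The complexes differed widely in how many of their values reached 1000. The clamp (88.1%, interval 74.4% to 96%), the histone mRNA binding gene Slbp (81.0%, 65.9% to 91.4%) and the Mcm2 to Mcm7 ring (74.6%, 68.8% to 79.9%) were highest. Polymerase delta had 59.5% of its values at 1000 or more, nucleotide supply 57.1%, the Okazaki fragment enzymes 52.4%, licensing factors 50.0%, the clamp loader 49.5% and the single strand binding proteins 47.6%. Below these were polymerase alpha with primase at 40.5%, the helicase partners at 38.1%, polymerase epsilon at 38.1%, the chromatin assembly gene Chaf1b at 31% and the origin recognition complex at 29.4% (23.8% to 35.4%). The intervals of the Mcm ring and of the origin complex did not meet. Probe sets differ in how strongly they bind, so these shares compare what the array detected and not numbers of transcripts.

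**Figure D2:**
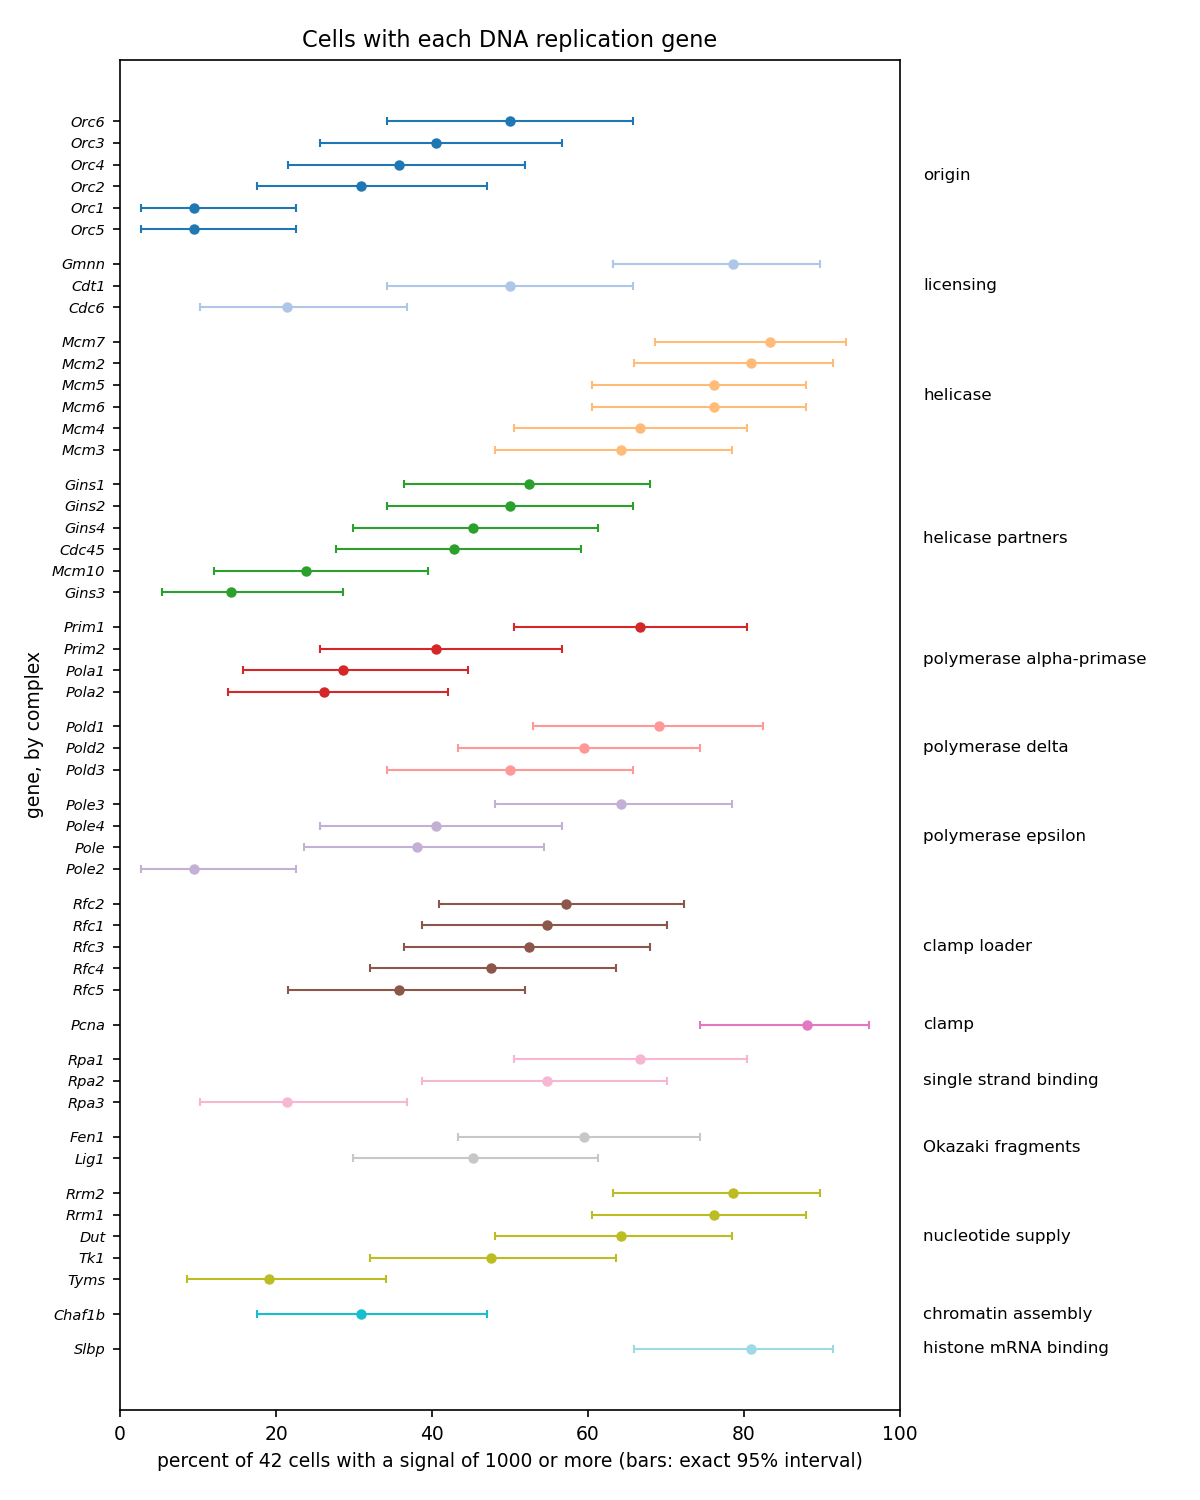
Percent of the 42 cells in which each replication gene reached 1000 (points) with exact 95% intervals (bars), grouped by complex. Pcna lies at 88.1% and Orc1, Orc5 and Pole2 at 9.52%, and genes of 1 complex often lie far apart, as Gins1 (52.4%) and Gins3 (14.3%) do.

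The origin recognition complex, whose 6 subunits mark where replication can start, had the lowest share over the 42 cells but not in each stage. At E12.5 33.3% of its values reached 1000, above Chaf1b (27.3%), at E16.5 18.2%, and at P0 38.5%, above the helicase partners (34.6%), polymerase epsilon (34.6%) and Chaf1b (15.4%). Orc6 was present in 21 cells (6 of 11 E12.5 cells, 4 of 11 E16.5 cells, 8 of 13 P0 cells), with signals of 1018 to 10710 where present. Orc3 was found in 17 cells at 1606 to 18264, Orc4 in 15 at 1248 to 17235 and Orc2 in 13 at 1142 and above. The Orc1 protein is degraded in S phase in human cells, but the array measured mouse transcripts only. Orc1 was found in only 4 cells, at 1801 in E12.5 cell E6, 1603 in E14.5 cell D7, 1316 in E16.5 cell F1 and 4258 in P0 cell G2. Orc5 was likewise found in 4 cells, at 8830 and 1961 in E12.5 cells B1 and E1 and at 6802 and 1770 in P0 cells E2 and F3. The 4 cells with Orc1 and the 4 with Orc5 were different cells, but groups this small among 42 cells often do not overlap, and nothing was inferred from it. No cell held all 6 subunits, the most was 5 in P0 cell F3, and 5 cells held none (E12.5 F8, E13.5 A5 and A6, E16.5 D5 and P0 C5). One Orc2 value stood out, 75921 in E16.5 cell E5, where the next highest of the 42 cells had 8200.

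Licensing factors showed a graded pattern. Geminin (Gmnn), which binds Cdt1 and blocks a second round of licensing, was present in 33 cells (9 of 11 E12.5 cells, 8 of 11 E16.5 cells, 11 of 13 P0 cells). Its signals ran between 263 and 22524 (median 7205) at E12.5, between 61.9 and 59337 (median 7656) at E16.5 and between 154 and 23722 (median 7894) at P0, so that the stages overlapped almost fully. Cdt1, the loader that geminin inhibits, reached 1000 in 21 cells, with signals of 1441 to 27421 there. Cdc6, the ATPase that recruits the ring with Cdt1, reached it in 9 cells (2 E12.5, 1 E13.5, 2 E16.5 and 4 P0), with signals of 1034 to 10374. All 3 were present together in 6 cells, and 5 cells held none of them.

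The Mcm2 to Mcm7 ring, the core of the replicative helicase, was often seen whole. Mcm7 was found in 35 cells (83.3%, interval 68.6% to 93.0%), Mcm2 in 34, Mcm5 and Mcm6 in 32 each, Mcm4 in 28 and Mcm3 in 27. All 6 genes were present in 18 of the 42 cells (4 from E12.5, 4 from E16.5 and 6 from P0 among them), or in 15 of 37 without the 5 E16.5 arrays, and no cell lacked all 6. The fewest, 1 of the 6, were found in E13.5 cell A5, E16.5 cell F1 and P0 cell H3. Mcm7 signals lay between 4771 and 51805 (median 10550) at E12.5, between 712 and 84977 (median 12761) at E16.5 and between 171 and 38878 (median 12190) at P0. Every E12.5 cell was thus above 1000, while 2 of 11 E16.5 and 4 of 13 P0 cells fell below it. Mcm5 showed the same at E12.5, with signals of 1567 to 28815 (median 10484) in the 11 cells, between 12.4 and 26066 (median 3100) at E16.5 and between 3.79 and 26269 (median 7699) at P0.

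Where an Mcm gene was present its signal was usually far above the limit. Mcm6 had no value between 1000 and 4872, and 31 of its 32 positive cells were at 5000 or more. Its signals were 33.7 to 33892 (median 12068) at E12.5, 544 to 49801 (median 23440) at E16.5 and 48.2 to 60327 (median 11041) at P0. Mcm2 ran between 73.7 and 29333 (median 7092) at E12.5, between 495 and 15714 (median 7676) at E16.5 and between 62.8 and 53041 (median 13716) at P0. Mcm3 ran between 110 and 26825 (median 5176) at E12.5, between 69.0 and 11048 (median 1402) at E16.5 and between 16.9 and 32024 (median 9550) at P0, and was the member of the ring found in the fewest cells. Mcm4 reached 69731 in E13.5 cell A6, a cell in which only 8 replication genes were present. Pairs of genes within the ring shared a median of 70.3% of the cells that held either gene (15 pairs), against 39.1% for pairs of genes from different complexes (1138 pairs) and 13.3% for pairs of origin subunits (15 pairs). Genes found in many cells share more cells by their number alone, so this order is not independent of the shares above. The high value of the ring did not extend to complexes in general. Written as a fraction of the cells holding either gene, the median was 0.407 over all 87 pairs within complexes. It was 0.391 over the 1138 pairs between complexes.

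The partners that turn the ring into a helicase were less often present. Cdc45 was found in 18 cells, Mcm10, which helps to activate the ring, in 10, and of the GINS subunits Gins1 in 22, Gins2 in 21, Gins4 in 19 and Gins3 in 6. Only E16.5 cell J1 and P0 cells E6 and F3 held all 4 GINS genes, and these were also the only cells with the ring, Cdc45 and GINS complete. Gins3, the rarest, had signals of 5317 in E12.5 cell E6, 7287, 1431 and 2963 in E16.5 cells E8, F5 and J1, and 2482 and 1266 in P0 cells E6 and F3. Where present, Cdc45 stayed between 1250 and 6800, while Gins1 reached 24134, Gins2 16864, Gins4 15333 and Mcm10 10922.

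The subunits of polymerase alpha with primase and of polymerase epsilon differed widely in how many cells held them. The 3 listed genes of polymerase delta were each found in 21 or more cells. Pold4, a further delta subunit kept in a separate list of other replication genes, was present in only 1 cell. Prim1, the catalytic primase subunit, was found in 28 cells, whereas its partner Prim2 was found in 17, the catalytic Pola1 in 12 and the accessory Pola2 in 11 (4 E12.5, 2 E13.5, 2 E16.5 and 3 P0 cells). Signals where present ran between 2356 and 56228 for Prim1, 1550 and 38098 for Prim2, 1324 and 9659 for Pola1 and 1072 and 14443 for Pola2. Of polymerase delta, which makes most of the lagging strand, the catalytic Pold1 was present in 29 cells, Pold2 in 25 and Pold3 in 21, and 14 cells held all 3. Where present, Pold1 ran between 1168 and 26995, Pold2 between 1502 and 29504 and Pold3 between 1171 and 19335. Of polymerase epsilon, the leading strand enzyme, the small histone-fold subunit Pole3 was found in 27 cells, its dimer partner Pole4 in 17, the catalytic Pole in 16 and Pole2 in 4. Pole ran between 1100 and 26766 where present and Pole3 between 1047 and 13334. Pole2, an accessory subunit of the same enzyme, had signals of 6545 and 1031 in E16.5 cells E3 and F1 and 1646 and 6081 in P0 cells E6 and G2. A single cell, P0 E6, held all 11 listed polymerase and primase genes, and no cell lacked all of them.

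Pcna, the ring that tethers polymerases to DNA, was the most widespread replication gene. Its signals were 23.9 to 58801 (median 20008) at E12.5, 87.2 to 122562 (median 29040) at E16.5 and 457 to 81865 (median 31833) at P0. It was below 1000 in only 5 cells, E12.5 E5, E13.5 A6, E16.5 D5, E16.5 E5 and P0 C8, and in 36 of its 37 positive cells it was at 5000 or more. The clamp loader that opens the ring was detected about evenly, with Rfc2 in 24 cells, Rfc1 in 23, Rfc3 in 22, Rfc4 in 20 and Rfc5 in 15. Rfc2, found the most widely, was present in 7 of 11 E12.5, 6 of 11 E16.5 and 7 of 13 P0 cells at 1488 to 23894, and Rfc5, the least, in 4, 2 and 6 of them at 1013 to 10223. Signals where present were 1076 to 26292 for Rfc1, 2161 to 24088 for Rfc3 and 1271 to 42917 for Rfc4. All 5 loader genes were present in 8 cells and none in 9.

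Of replication protein A, the heterotrimer that coats single-stranded DNA, the large subunit Rpa1 was present in 28 cells and Rpa2 in 23, but the small subunit Rpa3 in only 9. Rpa1 signals ran between 54.6 and 18463 (median 9351) at E12.5, between 32.9 and 7249 (median 1085) at E16.5 and between 15.5 and 24407 (median 7388) at P0, so its E16.5 median lay just above the limit. Where present, Rpa2 ran between 1241 and 23702 and Rpa3 between 1323 and 10414, the latest stage holding 1 of the 9 cells with Rpa3. The Okazaki fragment enzymes Fen1, a flap endonuclease, and Lig1, the ligase that seals the nick, were present in 25 and 19 cells, at 1156 to 21672 for Fen1 and 1680 to 30673 for Lig1. Both were found together in 15 cells and neither in 13.

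The most widespread genes of nucleotide supply were those of ribonucleotide reductase, which makes deoxynucleotides. Its small subunit Rrm2 was present in 33 cells and its large subunit Rrm1 in 32, and both were present in 27. Rrm2 signals were 454 to 53604 (median 11080) at E12.5, 69.5 to 94412 (median 13416) at E16.5 and 43.5 to 65933 (median 13195) at P0. Dut, which removes dUTP, was found in 27 cells, the salvage kinase Tk1 in 20 and thymidylate synthase (Tyms) in 8 by its single-symbol probe sets (1 E12.5, 2 E13.5, 2 E16.5 and 3 P0 cells). Signals where present were 1012 to 36249 for Rrm1, 1162 to 19909 for Dut, 1104 to 25186 for Tk1 and 1009 to 8282 for Tyms. A further probe set, listed for both Tyms and the pseudogene Tyms-ps and not used here, reached 1000 in 21 cells, so the figure for Tyms depends on that choice. Slbp, which binds the stem loop of histone mRNAs and accumulates in S phase, was present in 34 cells, and Chaf1b, a subunit of the chromatin assembly factor that loads new histones, in 13 at 1548 to 16282. Slbp signals were 37.1 to 29555 (median 5551) at E12.5, 20.2 to 19061 (median 4676) at E16.5 and 15.2 to 43082 (median 14703) at P0.

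Since many of these genes are known as E2F targets, the promoters of the list were searched for the E2F letters and for the CCAAT box. The E2F letters were TTTNNCGC (each N being C or G, GCGNNAAA on the other strand), and the CCAAT box reads ATTGG on the other strand. Promoter windows of RefSeq, build GRCm38.p6, from 250 bases before to 50 after a transcription start, were available for 42 of the 50 genes. The windows for Gmnn, Mcm4, Gins1, Gins2, Gins4, Prim2, Pole and Rfc2 were not analyzed. The E2F letters were found in a window of 16 of the 42 genes (38.1%), against 1 of 33 mitosis genes (3.03%) and 2.61% of the 27025 genes in the table, and against 6.97% of the 1621 genes present in 21 or more cells. The share was 4 of 5 for the Mcm ring and 0 of 5 for nucleotide supply. The CCAAT box was found in 57.1% of the replication genes, 75.8% of the mitosis genes and 41.1% of all genes. The 16 genes with the E2F letters were present in a median of 20 cells (4 to 35) and the 26 without in a median of 22 (4 to 37). A match of letters is not a binding site, and no binding was measured.

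The windows shown are those of the genes found in the most cells (Pcna and Mcm7) and in the fewest (Pole2 and Orc5). Pole2 and Orc5 were tied with Orc1 and taken for their higher median signal. Motifs played no part in the choice. The E2F letters and CCAAT boxes of either strand are in capitals. Each window runs 5′ to 3′ on the strand of its gene, the minus strand in all 4.
Pcna: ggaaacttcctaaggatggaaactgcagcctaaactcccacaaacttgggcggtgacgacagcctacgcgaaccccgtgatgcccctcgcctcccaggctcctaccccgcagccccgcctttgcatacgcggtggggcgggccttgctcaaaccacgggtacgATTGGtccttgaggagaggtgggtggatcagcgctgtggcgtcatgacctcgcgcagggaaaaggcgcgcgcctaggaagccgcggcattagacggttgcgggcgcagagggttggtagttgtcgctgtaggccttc
Mcm7: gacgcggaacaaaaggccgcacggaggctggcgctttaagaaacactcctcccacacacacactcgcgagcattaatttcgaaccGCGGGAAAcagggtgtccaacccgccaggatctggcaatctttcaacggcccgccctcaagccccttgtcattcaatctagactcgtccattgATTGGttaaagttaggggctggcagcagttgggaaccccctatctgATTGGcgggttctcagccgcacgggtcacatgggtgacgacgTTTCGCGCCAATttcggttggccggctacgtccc
Pole2: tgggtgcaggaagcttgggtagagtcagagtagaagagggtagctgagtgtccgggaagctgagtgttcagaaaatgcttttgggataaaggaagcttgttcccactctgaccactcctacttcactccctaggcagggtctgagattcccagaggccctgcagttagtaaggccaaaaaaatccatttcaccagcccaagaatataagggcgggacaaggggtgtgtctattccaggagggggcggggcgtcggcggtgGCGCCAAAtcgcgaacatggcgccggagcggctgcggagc
Orc5: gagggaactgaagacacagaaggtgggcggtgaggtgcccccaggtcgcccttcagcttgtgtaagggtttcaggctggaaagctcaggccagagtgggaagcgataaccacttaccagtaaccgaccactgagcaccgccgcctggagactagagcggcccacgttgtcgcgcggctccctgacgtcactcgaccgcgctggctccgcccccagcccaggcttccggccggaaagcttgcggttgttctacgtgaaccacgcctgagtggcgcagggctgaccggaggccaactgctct
The windows span chr2:132253131-132253430 for Pcna, chr5:138171834-138172133 for Mcm7 (the first of its 2 windows in the table), chr12:69228141-69228440 for Pole2 and chr5:22550289-22550588 for Orc5. Mcm7 holds 2 E2F matches and 3 CCAAT boxes, of which the E2F match at base 17 after the start and a CCAAT box share 1 base. Pcna, in 37 cells, has a CCAAT box but no E2F match of this form. Pole2, in 4 cells, has an E2F match at base 11, and Orc5, also in 4 cells, has neither motif.

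The number of replication genes per cell varied widely within each stage of 4 or more cells. It ran between 7 and 46 of 50, with a median of 24. The median was 23 for E12.5 cells (8 to 43), 23 for E16.5 cells (7 to 40) and 26 for P0 cells (11 to 46). The E13.5 cells had 8, 8, 24 and 37 genes, the E14.5 cells 26 and 32 and the E15.5 cell 25. At the low end were E16.5 cells D5 and E5 with 7 each and E12.5 E5, E13.5 A5 and E13.5 A6 with 8 each. At the high end were P0 E6 with 46, E12.5 B1 with 43, E12.5 A4 with 42, E16.5 J1 and P0 F3 with 40 each, E16.5 J2 with 39 and E12.5 E6 with 38. Among the E16.5 arrays, the 5 with departing controls had 15 to 40 genes (median 30) and the other 6 had 7 to 33 (median 19).

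**Figure D3:**
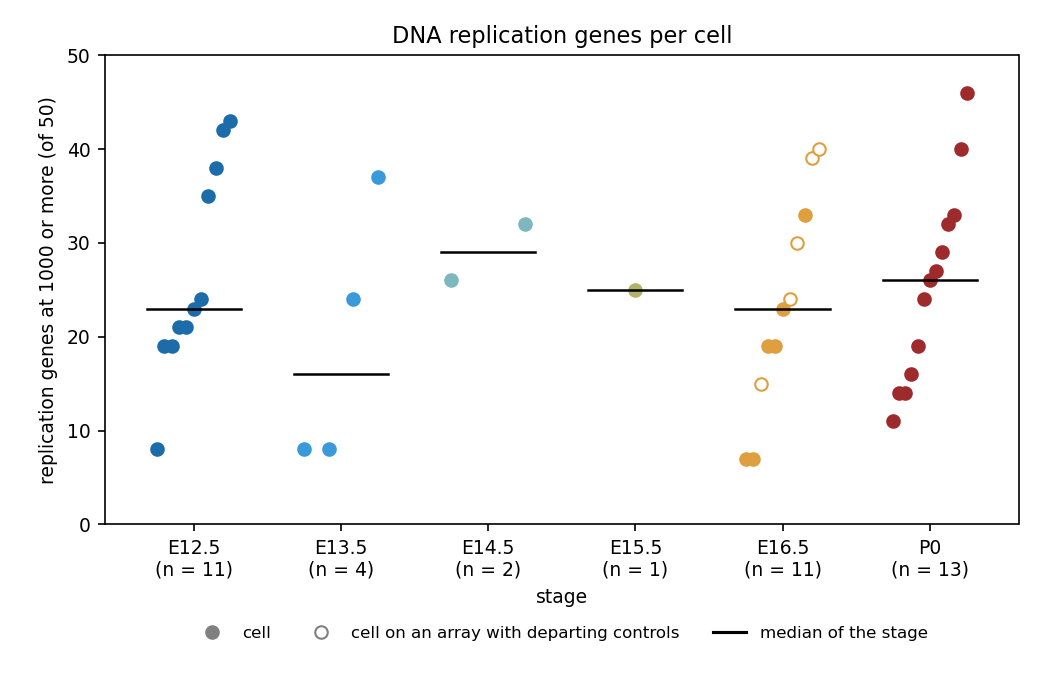
Number of the 50 replication genes at 1000 or more in each cell (vertical axis) by stage (horizontal axis). Each circle is 1 cell, open circles are the 5 E16.5 arrays with departing controls, and lines are stage medians; all 3 stages with 11 or more cells span from 11 or fewer to 40 or more genes.

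The number of replication genes followed, in part, how many genes of any kind a profile held. Over the 42 cells the Pearson correlation of the 2 numbers was 0.52 and the Spearman correlation 0.55, and without the 2 cells farthest from the median number of genes they were 0.59 and 0.61. Within stages the Pearson values were 0.74 at E12.5 (n = 11), 0.58 at E16.5 (n = 11) and 0.46 at P0 (n = 13), with 0.83 on the 6 E16.5 arrays without departing controls. Both numbers come from the same array, so they share its detection. Cells of like breadth still differed: E16.5 F1, a transitional cell with departing array controls, had the most genes of all, 5253, but 15 replication genes, and P0 E5 had 4100 and 14, while P0 E6 had 4182 and 46. Per 1000 genes present, the number ran between 2.25 in E13.5 A6 and 13.7 in E16.5 E3. When the 3000 highest genes of each cell were counted as present instead, so that every cell had the same number, cells still held between 7 and 42 replication genes (median 25).

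Other genes of replication, listed for their role, varied together with the complexes, and genes of mitosis did so less. The number of 41 other replication genes per cell, which include kinases, topoisomerases and checkpoint factors, had a Pearson correlation of 0.84 with the number of complex genes (Spearman 0.82, n = 42), and of 0.83, 0.87 and 0.86 within E12.5, E16.5 and P0. On the 6 E16.5 arrays without departing controls it was 0.93. The widest of them were Nasp, a histone chaperone, and Top2a, a topoisomerase, in 35 cells each, with Uhrf1, which is needed to maintain DNA methylation, in 33. For 39 mitosis genes, among them Cdk1 in 33 cells and Aurkb in 23, the correlation was 0.20 (Spearman 0.15). Within E12.5 it was 0.15, within E16.5 0.45 (0.59 on the 6 arrays without departing controls) and within P0 -0.33 (n = 13). With arrays at a common control level it was 0.39 over all cells, and, with the 3000 highest genes of each cell counted, -0.04 over all cells and -0.62 within P0. All these numbers come from the same arrays.

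The P0 cells show both ends of this. P0 cells G2 and H2 held 33 and 32 replication genes but 2 and 6 mitosis genes. P0 cells H3, E5 and E2 held 11, 14 and 19 replication genes but 36, 35 and 37 mitosis genes. Both groups of genes were widely present in P0 F3, with 40 and 36, and few of either in E13.5 A5, with 8 and 1. Of these replication genes, those of the Mcm ring numbered 6 in P0 G2 and P0 H2, 1 in H3, 2 in E5 and 3 in E2. Progenitor markers did not separate these cells, with 7 of 9 in G2 and 8 of 9 in each of H2, H3, E5 and E2, and housekeeping genes were present in 6 to 8 of 8.

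**Figure D4:**
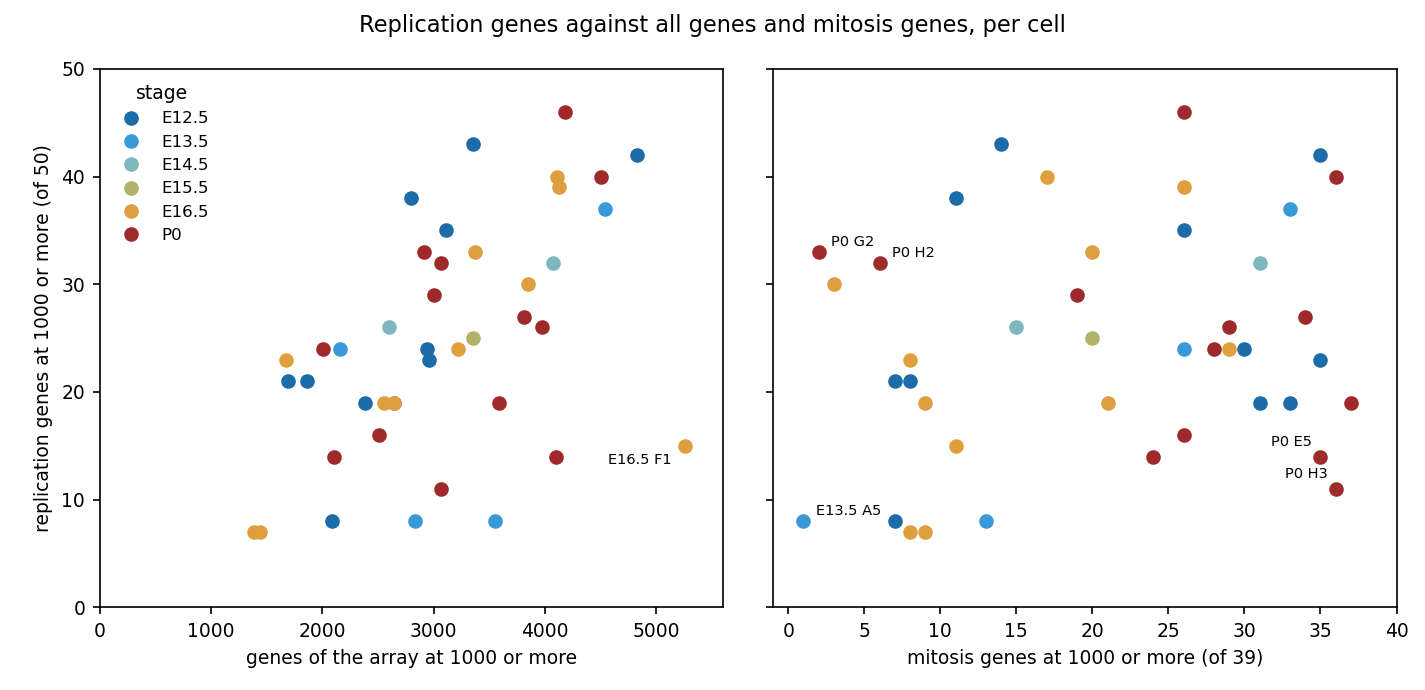
Number of the 50 replication genes present in each cell (vertical axes) against the number of all genes present (left) and of 39 mitosis genes present (right), each point 1 cell colored by stage. Replication genes increase with all genes (Pearson 0.52) but show little relation to mitosis genes (0.20), with P0 G2 and H2 at upper left and P0 E5 and H3 at lower right.

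Markers of cell state gave different relations with the number of replication genes. For the 9 progenitor markers the Pearson correlation was 0.61 over 42 cells (Spearman 0.59), and for the 11 markers of postmitotic neurons it was -0.11 (Spearman -0.13). For progenitor markers the Pearson value was 0.60 within E12.5 (n = 11), 0.87 within E16.5 (n = 11) and 0.31 within P0 (n = 13). For neuronal markers it was 0.31, -0.49 and -0.09 in the same order, so its sign differed between stages. On the 6 E16.5 arrays without departing controls the values were 0.85 and -0.36. These markers and the replication genes were read from the same arrays, and what each shares with detection was not tested.

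By stage, the replication genes as a whole reached a signal of 1000 about as often at P0 as at E12.5. At P0 50.9% of the values reached 1000 and at E12.5 53.3%, a difference of -2.35 points (Newcombe interval over values, not cells, -7.99 to 3.32). Leaving out 1 cell at a time moved the difference between -6.08 points, without E12.5 cell E5, and 0.92 points, without E12.5 cell B1, and it was also above 0 without E12.5 cell A4 (0.72 points) or P0 cell H3 (0.06 points). Of the 50 genes, 25 were found in a larger share of P0 cells and 25 in a larger share of E12.5 cells, with a median difference of 0 points, against a median of 5.24 points over the 8388 genes present in 4 or more cells. Mitosis genes stood at 66.7% of values at P0 and 55.2% at E12.5, and all genes at 18.1% and 15.3%. With the 3000 highest genes of each cell counted as present, the difference for the replication genes was -5.15 points (-10.8 to 0.53, again over values).

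Single genes were set apart at a limit of 30 points. Higher by 30 points or more at P0 were 3 of the 50 genes (Pole3, Prim1 and Orc2), where 10.3% of the genes in 4 or more cells were, and lower were 5 (Pole4, Cdc45, Pold3, Gins4 and Mcm7), where 3.30% were. Pole3 was present in 11 of 13 P0 cells and 4 of 11 E12.5 cells, a difference of 48.3 points (9.27 to 72.2), and in 7 of 11 E16.5 cells. Its P0 signals ran between 142 and 13334 (median 4996) and its E12.5 signals between 8.50 and 6011 (median 451), so the stages overlapped. Prim1 was present in 11 of 13 P0 cells and 5 of 11 E12.5 cells, a difference of 39.2 points (1.41 to 65.8), with medians of 12053 at P0 and 761 at E12.5. Orc2 was present in 7 of 13 P0 cells and 2 of 11 E12.5 cells (35.7 points, -2.82 to 62.1), and the fourth largest difference was that of Tk1, with 9 of 13 and 5 of 11 cells (23.8 points, -14.0 to 54.0).

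Pole4 went the other way. Although its product pairs with that of Pole3, it was present in 1 of 13 P0 cells and 8 of 11 E12.5 cells, a difference of -65.0 points (-83.7 to -26.1), the largest of the 50. The P0 cell was E6, at 2890, and the other 12 P0 cells were below 1000, with a P0 median of 74.1. The 8 E12.5 cells had signals of 1169 (A4), 1935 (B1), 3513 (E1), 8685 (E6), 8734 (G2), 10624 (F8), 11570 (B4) and 30857 (F2). At E16.5 it was present in 5 of 11 cells, on 4 of the 5 arrays with departing controls and 1 of the other 6. Cdc45 was found in 4 of 13 P0 cells and 8 of 11 E12.5 cells (-42.0 points, -67.1 to -2.21), with medians of 447 at P0 and 1977 at E12.5, on either side of the limit. Pold3 was found in 5 and 8 cells (-34.3 points, -61.4 to 4.91), Gins4 in 4 and 7 (-32.9 points, -60.7 to 6.12) and Mcm7 in 9 and 11 (-30.8 points, -57.6 to 0.81).

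These 8 genes are the ends of a ranking of 50, so their intervals understate the uncertainty of the choice. Counted at 5000 or more, with the mean of the probe sets, among the 3000 highest genes of a cell or with the arrays set to a common control level, Pole4 stayed between -65.0 and -45.5 points and Prim1 between 32.9 and 39.2. Pole3 ran between 18.9 and 48.3 points, Orc2 between 14.0 and 35.7, Pold3 between -34.3 and -16.1, Gins4 between -32.9 and -13.3 and Mcm7 between -30.8 and -21.7. Cdc45 changed sign at a level of 5000, with 7.69 points in place of -42.0, where 1 of its 42 values reached that level.

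**Figure D5:**
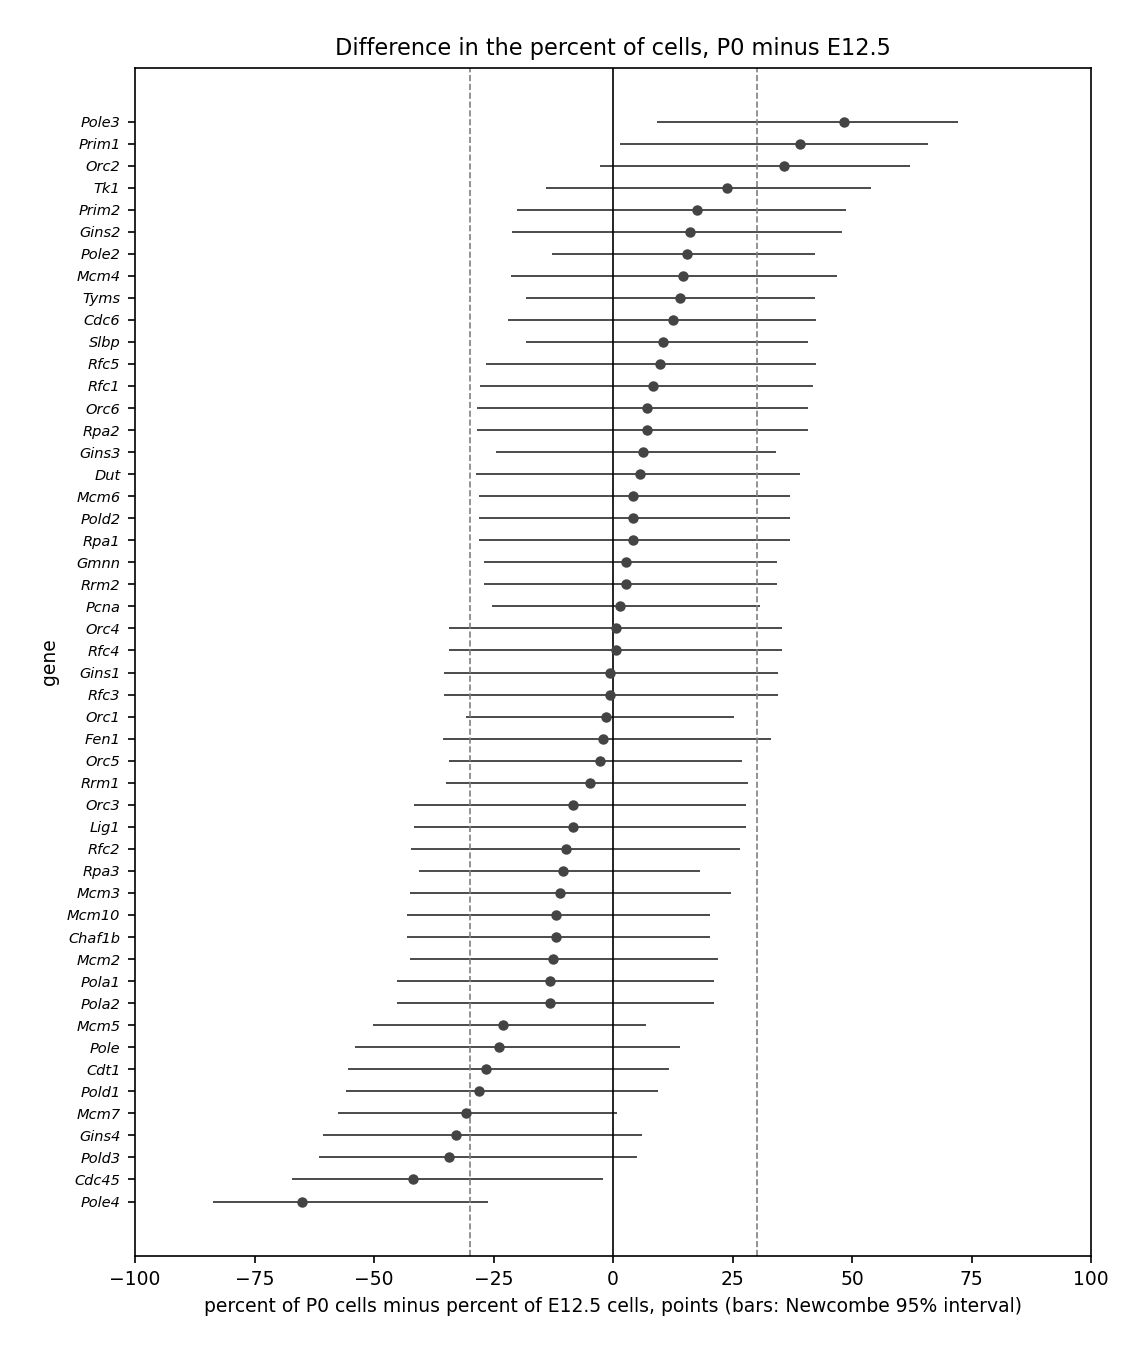
Percent of P0 cells minus percent of E12.5 cells in which each of the 50 replication genes reached 1000, in points (horizontal axis), with Newcombe 95% intervals (bars) and dashed lines at 30 points either way. Pole3 lies highest at 48.3 points and Pole4 lowest at -65.0 points, and most intervals include 0.

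The comparison of E16.5 with E12.5 depended on the arrays used. At E16.5 46.5% of the values reached 1000, against 53.3% at E12.5, a difference of -6.73 points (-12.6 to -0.82). This interval counts the 50 genes of a cell as separate values. Cells ran between 7 and 40 genes at E16.5 and between 8 and 43 at E12.5, so it understates the spread between cells. The 5 E16.5 arrays with departing controls had 59.2% of their replication gene values at 1000 or more and the other 6 had 36.0%, while for all genes these shares were 22.6% and 12%. The difference from E12.5 was -17.3 points with the other 6 arrays alone and 5.93 points with the 5 alone. Over all 11 E16.5 cells none of the 50 genes was 30 points or more higher than at E12.5, where 4.33% of all genes in 4 or more cells were, and 4 (Orc4, Cdt1, Mcm5 and Pold2) were that much lower, where 4.40% were. Without the 5 arrays, 1 gene (Rpa3) was higher, where 4.65% of genes were, and 17 were lower, where 13.1% were. The part of the arrays in these differences was not tested.

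Pold2 was present on 4 of the 5 E16.5 arrays with departing controls, on none of the other 6 and in 8 of 11 E12.5 cells. Mcm5 was present in 4 of the 5, 3 of the other 6 and 11 of 11 E12.5 cells. Mcm10 was present in 4 of the 5 and none of the other 6, and Rpa3 in none of the 5 and 3 of the other 6. For the Mcm ring 76.7% of values reached 1000 on the 5 arrays and 66.7% on the other 6, for the helicase partners 66.7% and 25%, and for polymerase delta 80% and 27.8%.

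Each gene was also set against the number of the other 49 present in the same cell. The Spearman correlation of its log2 signal with that number had a median of 0.39 and ran between -0.10 for Rpa3 and 0.66 for Mcm3, with 2 genes (Rpa3 and Gins3) below 0. Mcm3, Cdc6 (0.61), Dut (0.59), Rfc5 (0.58) and Cdt1 (0.57) followed the others most closely, though Cdc6 was present in only 9 cells. Widespread genes did not always do so, with 0.28 for Slbp, 0.29 for Rrm1, 0.30 for Gmnn and 0.32 for Mcm7. Over 5185 genes outside the list that were present in 10 cells or more, the median correlation with the number of replication genes was 0.13, over 31 other replication genes it was 0.27 and over 39 mitosis genes -0.01. The 10 genes outside the list with the highest values were Fxyd6 (0.65, a regulator of the sodium pump), Msh6 (0.61, a mismatch repair protein), Ubr7, Zbed4, Tmem50b, Dcbld2, M6pr, Nmral1, 2410002F23Rik and Nxt1 (0.58), and each was present in 13 to 21 cells. They are the top of a ranking over 42 cells that share arrays and breadth with the replication genes, and nothing was inferred from it.

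The pair that shared most of the cells holding either gene was Mcm2 and Slbp, with 31 of 37 cells, which are 31 of the 34 with Mcm2 and 31 of the 34 with Slbp. Pcna and Slbp shared 32 cells, of 37 and 34, Mcm7 and Pcna shared 32, of 35 and 37, and Mcm2 and Mcm7 shared 31, of 34 and 35. Spearman correlations of their log2 signals for these 4 pairs were 0.41, 0.47, 0.40 and 0.38 over 42 cells.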

How the data were processed

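Single cells of CD1 mouse retinas were lysed, their RNA was reverse transcribed with oligo dT and amplified by 35 cycles of PCR, and the cDNA was hybridized to Affymetrix 430 2.0 arrays, per the labels. The deposited values are intensity signals that the authors computed with MAS5 and brought to a common target of 500 per array; they are linear and were used as deposited, and 0 columns were left unmapped. Symbols came from the platform annotation, where 34958 of 45101 probe sets had 1 symbol, and for 50 of 50 genes the gene identifiers matched RefSeq (GRCm38.p6). The 50 genes had 113 probe sets, 1 for 12 genes and up to 5 for the others, and the highest signal was taken; for 19 of the 38 genes with several, 1 probe set alone gave the number of cells. Depth of an array is not known beyond the number of genes at 1000 or more, and 1 array per cell limits precision. Cells were grouped by the stage in the labels; each stage was 1 sample, and nothing was tested. The genes and lists were chosen with earlier results of these data known. Genes given in full were the most and least widespread of each complex, those with the 4 largest P0 minus E12.5 differences each way and those named in the study. Alternatives were the level (500, 5000), the mean of probe sets, the 3000 highest genes, added probe sets and left-out arrays; the common control level, the left-out single cells and the E16.5 subsets were chosen after seeing the data. Intervals were checked on simulated data. Python 3.11.15 with pandas 2.3.3 and scipy 1.17.1 was used.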

Additional observations from a re-analysis of the deposited data

Results flagged for a closer look

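A probe set listed for both Tyms and the pseudogene Tyms-ps, which the main measurement left out, reached 1000 in 21 cells, with a highest signal of 24590 in P0 cell C8. The single-symbol probe sets of Tyms reached it in 8 cells, 6 of them among the 21, so that 23 cells had Tyms on either. The gene and the pseudogene cannot be told apart on it.

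Among the 4 E13.5 cells, A8 stood apart in polymerase alpha and primase, with 4 of 4 genes present, while the other 3 cells had 1 each. It was the 1 of 16 per-cell numbers examined that stood apart. Chance sets about 1 in 20 groups of untied values apart, a rate that does not hold for these small tied counts, in which any gap does so.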

How the results depend on the processing

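The share of replication gene values at 1000 or more was 49.5%. It was 29.5% at a level of 5000, 56.1% at 500 and 44.9% with the mean of the probe sets, and between 48.2% and 50.2% with the 3000 highest genes of each cell, added probe sets, a common control level or without the 5 E16.5 arrays. A level of 5000 gave a median of 15 genes per cell in place of 24, and 10 cells with all 6 Mcm2 to Mcm7 genes in place of 18. The P0 minus E12.5 difference of -2.35 points stayed below 0 under the 6 settings tried, and ran between -6.08 and 0.92 points when 1 cell was left out. The E16.5 minus E12.5 difference of -6.73 points was -17.3 points without the 5 arrays with departing controls and turned to 5.93 points with these alone; the cause was not tested. The correlation of replication genes with all genes per cell (0.52) was 0.28 at a level of 5000 and 0.78 with arrays at a common control level. That with mitosis genes (0.20) was -0.04 with the 3000 highest genes and 0.39 with arrays at a common control level. Of the 50 single genes, 37 left their counting interval at 5000 and 3 with the mean of the probe sets. No paired analysis was possible because cells carry no number that links stages and no test was made. With 11 to 13 cells a stage, intervals of single genes were wide, and those of 4 of the 8 genes past 30 points included 0 (Orc2, Pold3, Gins4 and Mcm7).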
